A study of Homo sapiens with 4 samples.

Results

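The genes described here encode the glycoprotein receptors of the platelet surface and 3 proteins that platelets store in their alpha-granules. They are ITGA2B, ITGB3, GP1BA, GP1BB, GP9, GP5, GP6, PF4, PPBP and VWF, taken by symbol from a count table of 28103 gene symbols, in which all 10 were found. Poly(A) RNA had been sequenced from HEL, a human erythroleukaemia line that carries both erythroid and megakaryocytic features and is labelled a human erythroblast. The groups were AFF4_KD, HEL cells with AFF4 knockdown, and Ctrl, HEL cells of WT genotype, with 2 libraries in each. Both groups were grown in RPMI-1640 with serum and antibiotics. AFF4 holds together the super elongation complex, which helps RNA polymerase II to leave its paused state near promoters, and the series concerns that step. The labels do not say how AFF4 was knocked down, for how long, or whether a group's libraries came from separate cultures. The p-values therefore measure only how far these libraries differ from each other, a spread that may be technical.

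Platelets are shed by megakaryocytes, which make the receptors and load the granules before the platelets form. The receptor of ITGA2B and ITGB3, integrin alphaIIb-beta3, binds fibrinogen once it has been switched on and links platelets to each other. The GPIb-IX-V complex of GP1BA, GP1BB, GP9 and GP5 catches von Willebrand factor under flow, and GP6 binds collagen. PF4 and PPBP are chemokines released from the alpha-granule, where von Willebrand factor is stored as well. Many of these genes are known to be driven in megakaryocytes by GATA1 together with ETS factors such as FLI1, and by RUNX1.

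Upstream sequences are shown for ITGA2B and GP9, receptor genes that stood high in Ctrl 2, and for PPBP, a granule gene with its knockdown libraries below its Ctrl libraries. Each is the 250 bases before the RefSeq start (GRCh38.p14), written 5′ to 3′ on the strand of the gene. Capitals mark GATAA on either strand, the core that GATA factors read.
ITGA2B, chr17:44389650-44389899, minus strand: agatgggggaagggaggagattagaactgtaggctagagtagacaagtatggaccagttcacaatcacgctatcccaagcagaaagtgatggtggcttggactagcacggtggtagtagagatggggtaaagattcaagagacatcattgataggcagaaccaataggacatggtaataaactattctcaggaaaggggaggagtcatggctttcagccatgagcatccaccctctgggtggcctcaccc
GP9, chr3:129060529-129060778, plus strand: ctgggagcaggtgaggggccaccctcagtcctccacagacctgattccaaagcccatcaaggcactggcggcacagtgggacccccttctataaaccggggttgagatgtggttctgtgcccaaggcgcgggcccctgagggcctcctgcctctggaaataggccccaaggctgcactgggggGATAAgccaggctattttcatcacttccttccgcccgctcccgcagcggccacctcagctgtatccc
PPBP, chr4:73988191-73988440, minus strand: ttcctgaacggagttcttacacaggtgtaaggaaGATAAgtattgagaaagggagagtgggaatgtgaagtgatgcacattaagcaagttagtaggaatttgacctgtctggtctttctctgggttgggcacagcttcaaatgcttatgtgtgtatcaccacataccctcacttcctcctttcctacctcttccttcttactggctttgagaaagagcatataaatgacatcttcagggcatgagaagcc
The GATAA match begins 67 bases before the start in GP9 and 216 bases before it in PPBP. The ITGA2B window holds no such match, and its RefSeq start lies 144 bases upstream of the gene start in GENCODE v29. A window was at hand for 6 of the 10 genes, and 5 of the 6 held GATAA. Of all 35116 promoter windows of the same length, 20.4% held it. Among the 5 were GP5 and GP1BB, whose RefSeq starts also lie far from the GENCODE v29 gene starts. Counted in bases upstream of that start, with a minus sign for downstream, they lie at 912 and -594. The values for GP6, GP9 and PPBP were 0, -12 and -7. GGAAG, an ETS core, was in 6 of the 6 and in 65.1% of all windows. TGTGGT, a RUNX core, was in 3 of the 6 and in 11.0% of all windows. Both strands were searched, and these matches describe letters in a window, not bound sites.

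AFF4 was the check of the labels. It had 338 and 319 counts in the AFF4_KD libraries, against 1650 and 1033 counts in the Ctrl libraries. As CPM, counts scaled to library size, this is 18.8 ± 0.187 in AFF4_KD and 78.7 ± 13.6 in Ctrl (SD, n = 2 each). AFF4 fell by 2.07 on the log2 scale (SE 0.19; adjusted p = 0.0268 by edgeR's quasi-likelihood test), and this call was lost with a stricter filter on low counts (edgeR adjusted p = 0.0552). Total counts were 16643610 to 17955867 in AFF4_KD and 14903878 to 19129008 in Ctrl. The Ctrl libraries stood further apart than the AFF4_KD libraries, with a Pearson correlation of log-CPM of 0.996 between the AFF4_KD libraries and 0.980 between the Ctrl libraries over 13572 tested genes. Of 14 erythroid markers, 13 were at 1 CPM or more in every library, and their summed level was 9344 to 9445 CPM in AFF4_KD and 12407 to 14437 CPM in Ctrl. Of 9 lymphoid, 8 monocyte and 6 fibroblast markers, 3, 3 and 1 reached 1 CPM in every library, and their sums were 92.5 to 97.6, 111 to 116 and 2.71 to 4.16 CPM in AFF4_KD, against 129 to 149, 108 to 122 and 5.09 to 5.15 CPM in Ctrl. The defining T cell genes CD3D, CD3E and CD3G and the fibroblast genes COL1A2, COL3A1, DCN and LUM were at 0 in every library. The erythroid, lymphoid and fibroblast sums moved with the groups, and their part in the results below was not tested. In bulk RNA, fewer cells of a type and less RNA per cell cannot be told apart.

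Of the 10 platelet genes, ITGB3 fell and none rose in AFF4_KD. The genes were not of 1 pattern: ITGB3, PF4, PPBP and VWF had both AFF4_KD libraries below both Ctrl libraries, GP1BA, GP5 and GP6 overlapped between the groups with log2 fold changes from 0.01 to 0.23, and ITGA2B and GP9 overlapped with a wide split between the Ctrl libraries. In all, 9 genes passed the filter on low counts and were tested. GP1BB was not tested, and VWF passed the filter through its Ctrl libraries, since AFF4_KD 2 lay under the minimum of 0.578 CPM. By edgeR's quasi-likelihood test (adjusted p under 0.05 over all genes), 1 of the 9 was lower and 0 were higher, where 0.295% of all 13572 tested genes were called lower and 0.346% higher. At an unadjusted p under 0.05, 2 were lower and 0 higher, against 8.19% and 6.79% of all genes. Both AFF4_KD libraries lay below both Ctrl libraries in ITGB3, PF4 and PPBP, and in VWF, whose place in the test rests on its higher Ctrl libraries. That is 4 of the 9, a separation in this direction found in 23.0% of all tested genes. The median log2 fold change was -0.55 over the 9 genes, VWF included, and -0.00887 over all tested genes. With a filter of 5 CPM in 2 libraries, which left out VWF, GP6 and PPBP, the median was -0.47 over 6 genes. That filter kept PF4 through its Ctrl libraries. Without Ctrl 2 the median over the 9 genes was -0.01.

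**Figure D1:**
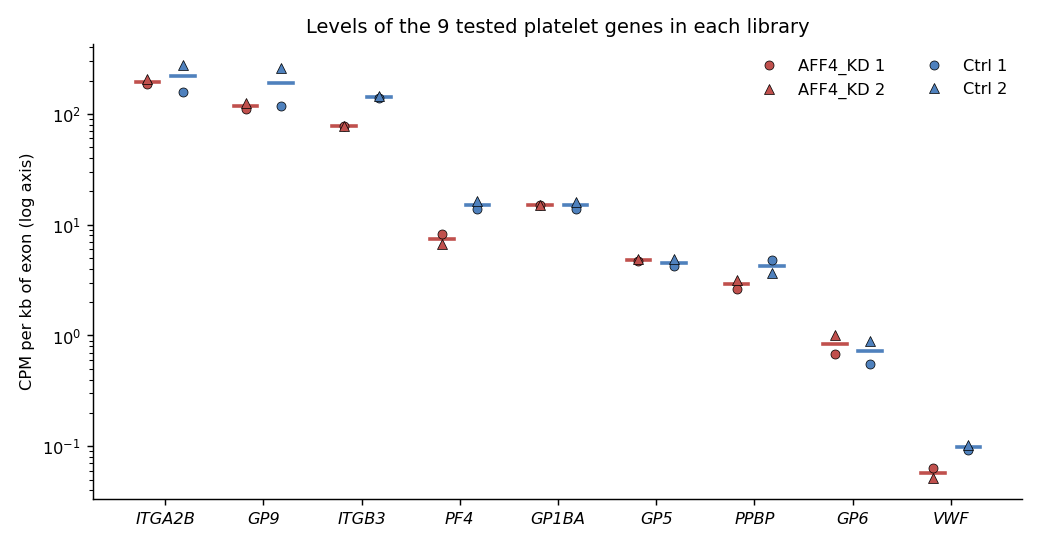
Level of each of the 9 tested genes in each library, in CPM per kb of exon on a log axis, with AFF4_KD in red on the left and Ctrl in blue on the right of each pair. Points are libraries and bars are group means (n = 2). The AFF4_KD and Ctrl points of ITGB3, PF4, PPBP and VWF do not overlap, and the Ctrl points of ITGA2B and GP9 are spread.

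The levels spanned a wide range. Per length, as CPM per kb of GENCODE v29 exon, ITGA2B was the most abundant in both groups by its mean, at 196 ± 14.6 in AFF4_KD and 219 ± 84.6 in Ctrl (SD, n = 2 each). In AFF4_KD the order was ITGA2B, GP9, ITGB3, GP1BA, PF4, GP5, PPBP, GP6 and VWF, and no neighbours in it overlapped. In Ctrl ITGA2B, GP9 and ITGB3 could not be ordered beyond their spread, nor could PF4 and GP1BA, nor GP5 and PPBP. VWF was the lowest of the tested genes, at 0.0576 CPM per kb in AFF4_KD and 0.0979 CPM per kb in Ctrl, and GP6, PPBP and VWF stayed under 5 CPM in every library.

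Of the 2 subunits of the fibrinogen receptor, ITGB3 fell and ITGA2B did not pass. ITGB3, the beta3 subunit (chromosome 17, 47253846 to 47311816, plus strand, hg38), had 6236 and 5725 counts, or 344.7 and 340.0 CPM, in the AFF4_KD libraries, against 11433 and 9584 counts, or 612.2 and 641.6 CPM, in the Ctrl libraries. The libraries of each group lay close together and the groups were far apart. ITGB3 fell by 0.87 on the log2 scale (SE 0.12; edgeR adjusted p = 0.0415), to 54.6% of its Ctrl level, in each of the 4 pairs of an AFF4_KD and a Ctrl library. Its log2 fold change stayed between -0.91 and -0.84 over 14 alternatives, while its call was lost without AFF4_KD 1 (edgeR adjusted p = 0.626), without AFF4_KD 2 (0.808) and with a stricter filter on low counts (0.0654). Over these alternatives its adjusted p ran from 6.46e-44 to 0.808. In GENCODE v29, 51.6% of the exonic bases of ITGB3 are shared with AC068234.1, a same-strand gene that is not a row of the count table.

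ITGA2B, the alphaIIb subunit (chromosome 17, 44372180 to 44389505, minus strand), was at 1030.3 and 1144.7 CPM in the AFF4_KD libraries, against 880.7 and 1545.1 CPM in the Ctrl libraries. Both AFF4_KD libraries fell between the Ctrl libraries. The log2 fold change was -0.16 ± 0.25 (SE) and did not pass (edgeR adjusted p = 0.853). It turned with the Ctrl library used, at 0.30 without Ctrl 2 and -0.50 without Ctrl 1. Within a library, the ratio of ITGA2B to ITGB3 per kb was 2.37 and 2.66 in the AFF4_KD libraries, against 1.14 and 1.91 in the Ctrl libraries. The ratio was higher in both AFF4_KD libraries than in both Ctrl libraries, and remained so after the GC correction described below (2.45 and 2.59 in AFF4_KD, against 1.36 and 1.59 in Ctrl). A two-sided exact permutation test gave p = 0.333, the smallest that 2 against 2 libraries allow.

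In the GPIb-IX-V complex, GP1BA and GP5 varied little between the 4 libraries and GP9 varied widely. GP1BA, whose alpha chain holds the binding site for von Willebrand factor (chromosome 17, 4932297 to 4935030, plus strand), was at 37.6 and 37.8 CPM in the AFF4_KD libraries, against 34.7 and 40.2 CPM in the Ctrl libraries. Its log2 fold change was 0.01 ± 0.17 (SE; edgeR adjusted p = 0.989). GP5, glycoprotein V, which thrombin can cleave (chromosome 3, 194394821 to 194398354, minus strand), was at 16.6 and 17.3 CPM in AFF4_KD, against 14.9 and 17.2 CPM in Ctrl, with a log2 fold change of 0.08 (SE 0.19; adjusted p = 0.906, edgeR). The groups overlapped in both genes. The ratio of GP5 to GP1BA per kb was 0.313 and 0.324 in AFF4_KD, against 0.303 and 0.303 in Ctrl. With 2 libraries a group, a small change in either gene was not detectable.

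GP9, the small subunit glycoprotein IX, which the complex needs to reach the surface (chromosome 3, 129060767 to 129062406, plus strand), was at 99.2 and 110.5 CPM in the AFF4_KD libraries, against 105.3 and 232.8 CPM in the Ctrl libraries. Ctrl 2 stood apart, and Ctrl 1 lay between the AFF4_KD libraries. The log2 fold change was -0.69 ± 0.33 (SE; edgeR adjusted p = 0.403). Without Ctrl 2 it was -0.01, and without Ctrl 1 it was -1.15. The ratio of GP9 to GP1BA per kb was 7.42 and 8.23 in AFF4_KD, against 8.52 and 16.3 in Ctrl.

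GP1BB, the beta subunit that is disulphide-linked to GP1BA (chromosome 22, 19722945 to 19724771, plus strand), was listed at 0 in all 4 libraries. In GENCODE v29, 100% of its exonic bases are also exons of SEPT5-GP1BB, a read-through gene on the same strand, and 64.8% are also exons of SEPT5. The table lists SEPT5 at 0 in every library and SEPT5-GP1BB at 2 and 0 counts in AFF4_KD, against 0 and 0 in Ctrl. The sources used here do not say how reads that lie in more than 1 gene were counted, so these zeros give no level for the gene and allow no comparison.

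GP6, which binds collagen (chromosome 19, 55013705 to 55038264, minus strand), rested on few reads, 33 and 46 counts in AFF4_KD, against 28 and 36 in Ctrl. Its levels of 1.82 and 2.73 CPM in AFF4_KD and 1.50 and 2.41 CPM in Ctrl overlapped, with a log2 fold change of 0.23 (SE 0.35; adjusted p = 0.845, edgeR). FCER1G, the Fc receptor gamma chain through which GP6 signals, was at 45.4 and 44.5 CPM in AFF4_KD, against 35.0 and 30.3 CPM in Ctrl. Its groups did not overlap, but the log2 fold change of 0.46 ± 0.17 (SE) did not pass (edgeR adjusted p = 0.275).

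**Figure D2:**
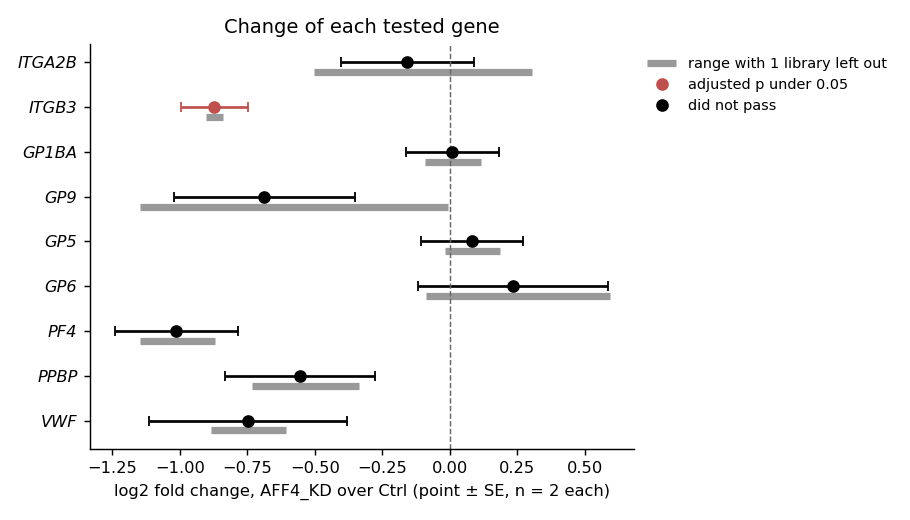
Log2 fold change of AFF4_KD over Ctrl for the 9 tested genes (point ± SE, n = 2 each), with a grey bar for the range when 1 library is left out. ITGB3, in red, passed with an adjusted p of 0.0415. Its grey bar runs from -0.90 to -0.84, while that of ITGA2B runs from -0.50 to 0.30 and that of GP9 from -1.15 to -0.01.

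The 3 granule genes lay lower in AFF4_KD and none of them passed, with VWF kept by the filter through its Ctrl libraries. PF4, platelet factor 4, a chemokine that binds heparin (chromosome 4, 73981077 to 73982124, minus strand), had 90 and 68 counts, or 4.97 and 4.04 CPM, in the AFF4_KD libraries, against 156 and 148 counts, or 8.35 and 9.91 CPM, in the Ctrl libraries. The groups were well apart. The log2 fold change was -1.01 ± 0.23 (SE; unadjusted p = 0.00289, adjusted p = 0.105 in edgeR), lower in each of the 4 pairs, and the AFF4_KD level was 49.5% of that in Ctrl. The value ranged from -1.15 to -0.87 over 14 alternatives and passed in 6 of them. Among the 6 were the fits without Ctrl 1 (-1.13) and without Ctrl 2 (-0.89), whose spread comes from the AFF4_KD libraries alone. PF4 did not pass without AFF4_KD 1 (-1.15), without AFF4_KD 2 (-0.87), with the stricter filter (edgeR adjusted p = 0.128) or in DESeq2 (DESeq2 adjusted p = 0.0658). PF4V1, a near copy of PF4 that could share reads with it, had 2 and 1 counts in AFF4_KD, against 2 and 14 in Ctrl.

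PPBP, the precursor from which the neutrophil-attracting chemokine NAP-2 is cut, lies 4914 bases from PF4 on the same strand (chromosome 4, 73987038 to 73988197, minus strand). It had 34 and 38 counts, or 1.88 and 2.26 CPM, in AFF4_KD, against 64 and 39 counts, or 3.43 and 2.61 CPM, in Ctrl. The nearest libraries of the 2 groups differed by little. The log2 fold change was -0.55 ± 0.28 (SE; edgeR adjusted p = 0.418). It passed in 1 of 13 alternatives, the fit without Ctrl 2 (-0.73), whose spread comes from the AFF4_KD libraries alone. Without Ctrl 1 it was -0.34 and did not pass. CXCL3 and CXCL2, chemokine genes of the same chromosome region, had log2 fold changes of -0.01 and -0.46 and did not pass (edgeR adjusted p = 0.993 and 0.472).

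VWF, the multimeric ligand that is made in endothelial cells as well as megakaryocytes (chromosome 12, 5948874 to 6124770, minus strand), had 12 and 9 counts in AFF4_KD, against 18 and 16 counts in Ctrl. In CPM this is 0.663 and 0.535 in AFF4_KD, against 0.964 and 1.07 in Ctrl. The groups did not overlap, but the counts were few and the log2 fold change of -0.75 ± 0.37 (SE) did not pass (edgeR adjusted p = 0.405). Of 10 endothelial markers other than VWF, 8 were at 1 CPM or more in every library and CLDN5 was at 0, with a summed level of 782 to 829 CPM in AFF4_KD and 670 to 959 CPM in Ctrl. These sums overlapped between the groups, and their part in the VWF values was not tested.

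The split of the Ctrl libraries in ITGA2B and GP9 went with GC content. Over all tested genes with a value, the median log2 ratio of Ctrl 2 over Ctrl 1 was -0.387 in the fifth of genes with the lowest transcript GC content (30.2 to 40.7%) and 0.645 in the highest (57.9 to 73.8%). The same medians for AFF4_KD 2 over AFF4_KD 1 were -0.052 and 0.111. ITGA2B has a transcript GC content of 61.1% and GP9 of 66.9%, and their log2 ratios of Ctrl 2 over Ctrl 1 were 0.81 and 1.14. ITGB3 and PF4 have 52.3% and 52.6%, and their ratios were 0.07 and 0.25. PPBP, at 42.5%, had -0.39. GP1BA (55.4%), GP5 (56.1%) and VWF (58.5%) had 0.21, 0.21 and 0.15. GP6 (54.6%), with few counts, had 0.68 between the Ctrl libraries and 0.58 between the AFF4_KD libraries.

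Once the trend with GC content was removed from each library, ITGA2B was at 1063 and 1101 CPM in AFF4_KD, against 1089 and 1255 CPM in Ctrl, and GP9 was at 104.8 and 104.5 CPM in AFF4_KD, against 145.8 and 167.9 CPM in Ctrl. A log2 ratio of Ctrl 2 over Ctrl 1 of 0.205 remained in ITGA2B and of 0.203 in GP9. GP9 then no longer overlapped between the groups and was called, with a log2 fold change of -0.59 (SE 0.07; adjusted p = 0.00191, edgeR). PF4 was called too, at -1.03 (edgeR adjusted p = 0.0037), and ITGB3 kept its call at -0.89 (edgeR adjusted p = 9.92e-05). ITGA2B (-0.12), GP1BA (-0.00), GP5 (0.07), GP6 (0.22), PPBP (-0.53) and VWF (-0.76) did not pass. This fit called 13.8% of all tested genes lower, so 3 of 9 stands against a far higher background than 1 of 9 did.

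**Figure D3:**
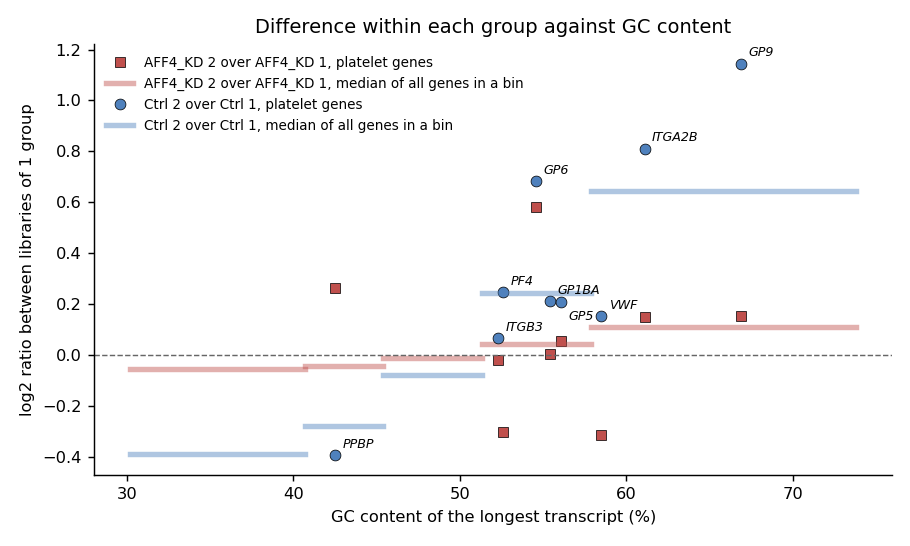
Log2 ratio between the libraries of 1 group (AFF4_KD 2 over AFF4_KD 1 in red, Ctrl 2 over Ctrl 1 in blue) against transcript GC content in percent. Points are the 9 tested genes, named at their Ctrl points, and horizontal lines are medians of all tested genes in 5 bins of GC content. GP9 and ITGA2B sit highest among the Ctrl points, at 1.14 and 0.81, in the bin whose Ctrl median is 0.645.

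Likeness of profile was measured as the Euclidean distance of log2 CPM, centred on each gene's mean, over the 4 libraries, against 127 other genes of this set and of 6 related lists. The genes nearest to ITGB3 were MYLK (distance 0.178), a kinase of the myosin light chain, and THBS1 (0.192), thrombospondin 1 of the alpha-granule. Those nearest to ITGA2B were NBEAL2 (0.0943), which alpha-granules need to form, and LAT (0.113), an adaptor of receptor signalling. GP1BA and GP5 were each other's nearest gene (0.0797). VPS33B, a granule sorting protein, came next for both (0.0954 and 0.0924). SRC (0.291) and the actin cross-linker FLNA (0.309), the nearest genes to GP9, were at their highest in Ctrl 2, as GP9 was. PF4 lay nearest to VWF (0.259) and ITGB3 (0.279). VWF had 9 to 18 counts in a library and passed the filter through its Ctrl libraries. Its nearness to PF4 therefore rests in part on that filter. These distances rest on 4 libraries and on CPM before the GC correction, so they take in the split between the Ctrl libraries. In Ctrl 1 and Ctrl 2, NBEAL2 was at 181.0 and 305.4 CPM and LAT at 178.8 and 319.3 CPM. The part of GC content in these distances was not tested.

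The 6 lists covered other platelet and megakaryocyte genes, 131 in all, of which 119 were tested. By edgeR 0 of these rose and 1 fell, against 0.641% of all tested genes called in either direction, and at an unadjusted p under 0.05 it placed 14 higher and 12 lower, against 6.79% and 8.19% of all tested genes. Their median log2 fold change was -0.005. The gene that fell was MYLK, at 100.8 and 95.5 CPM in AFF4_KD, against 203.2 and 192.3 CPM in Ctrl, with a log2 fold change of -1.01 (SE 0.14; adjusted p = 0.0394, edgeR). It is 1 of the 22 tested megakaryocyte maturation genes, whose median was -0.024. DNM3 of the same list, picked with its values in view, changed about as much in the other direction and did not pass. It was at 54.7 and 50.5 CPM in AFF4_KD, against 26.7 and 24.0 CPM in Ctrl. Its log2 fold change was 1.05 (SE 0.17, edgeR adjusted p = 0.0579). In this list DESeq2 called 2 higher and 1 lower, where it called 1.39% of all tested genes higher and 1.64% lower, and limma-voom called 0 higher and 1 lower, where it called 0.391% higher and 0.287% lower. MYLK lost its call when either knockdown library was left out (adjusted p in edgeR reaching 0.82) and with the stricter filter (0.0576). The transcription regulators of that list, named here with their values in view, did not pass in edgeR. Their log2 fold changes were 0.01 for GATA1, 0.05 for FLI1, -0.04 for RUNX1 and 0.10 for NFE2 (edgeR adjusted p = 0.99, 0.908, 0.925 and 0.862). TAL1, GFI1B, MEIS1 and ZFPM1 had 0.12, -0.14, 0.10 and -0.10 (edgeR adjusted p = 0.73, 0.863, 0.876 and 0.942). ETS1, an ETS factor, was at 773.8 and 754.0 CPM in AFF4_KD, against 544.8 and 447.7 CPM in Ctrl. Its groups did not overlap, and its value of 0.62 on the log2 scale (SE 0.14; adjusted p = 0.109, edgeR) was called after the GC correction (edgeR adjusted p = 0.000396) and by DESeq2. GATA2 had -0.31 (edgeR adjusted p = 0.52) and was called lower after the GC correction (edgeR adjusted p = 0.00596). ERG, under 2 CPM in every library, had 0.70 (edgeR adjusted p = 0.398).

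Alpha-granule cargo had the lowest median of the 6 lists. Of 30 listed genes 21 were tested, 16 with a negative and 5 with a positive log2 fold change, and the median was -0.401. By edgeR 0 passed, and after the GC correction 9 fell and 3 rose, where that fit called 13.8% of all tested genes lower and 13.3% higher. Before it, at an unadjusted p under 0.05, 7 were lower and 3 higher, against 8.19% and 6.79% of all tested genes. DESeq2 called 3 lower and 1 higher, against 1.64% and 1.39% of all tested genes, and limma-voom called 0. The genes with the smallest p were CLU, the chaperone clusterin, THBS1, and the angiogenic factor VEGFA. CLU was at 104.9 and 110.6 CPM in AFF4_KD, against 161.5 and 189.6 CPM in Ctrl. THBS1 was at 69.1 and 69.0 CPM in AFF4_KD, against 105.2 and 119.5 CPM in Ctrl. VEGFA was at 83.5 and 81.5 CPM in AFF4_KD, against 121.8 and 140.2 CPM in Ctrl. The groups did not overlap in these 3 genes, with log2 fold changes of -0.70, -0.70 and -0.67 (edgeR adjusted p = 0.0936, 0.0942 and 0.106). Cargo did not all lie lower: MMRN1, multimerin 1, which carries factor V in the granule, and the granule proteoglycan SRGN, both picked with their values in view, had log2 fold changes of 0.80 and 0.48 (edgeR adjusted p = 0.119 and 0.192).

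**Figure D4:**
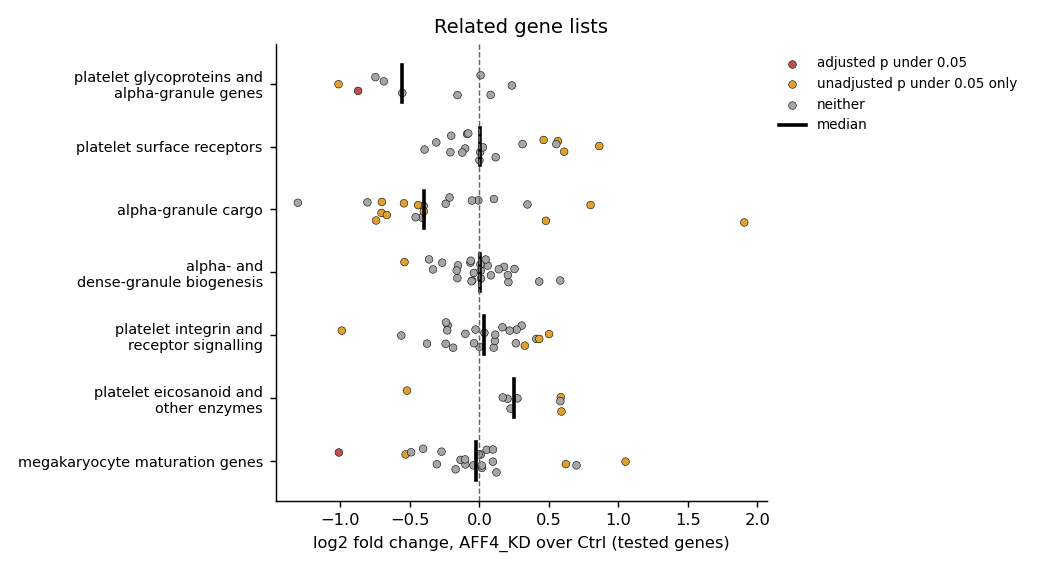
Log2 fold change of AFF4_KD over Ctrl for the tested genes of this set (top) and of the 6 related lists. Each point is a gene, coloured by its edgeR p, and the black bar is the median. The medians are -0.55 for this set, VWF included, -0.401 for alpha-granule cargo, and 0.249 for the platelet enzymes. VWF was kept by the filter on low counts through its Ctrl libraries.

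Other surface receptors centred near 0. Of 20 listed, 18 were tested, with a median of 0.003. By edgeR 0 passed. At an unadjusted p under 0.05 it placed 4 higher and 0 lower, against 6.79% and 8.19% of all tested genes. DESeq2 called 1 higher, where it called 1.39% of all tested genes higher, and limma-voom called 0. CD36, a scavenger receptor that also binds thrombospondin, was at 334.5 and 323.1 CPM in AFF4_KD, against 209.4 and 152.0 CPM in Ctrl, and PEAR1, a receptor engaged when platelets touch, was at 135.3 and 142.8 CPM in AFF4_KD, against 73.8 and 108.5 CPM in Ctrl. Both groups of libraries were apart in these genes, with log2 fold changes of 0.86 ± 0.18 and 0.61 ± 0.20 (SE; edgeR adjusted p = 0.0879 and 0.229).

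Among 25 tested genes of integrin and receptor signalling the median was 0.036. By edgeR 0 passed. At an unadjusted p under 0.05 it placed 3 higher and 1 lower, against 6.79% and 8.19% of all tested genes. DESeq2 called 1 lower, where it called 1.64% of all tested genes lower, and limma-voom called 0. PIK3CB, the phosphoinositide 3-kinase isoform that sustains integrin activation, was at 185.2 and 184.2 CPM in AFF4_KD, against 422.7 and 310.6 CPM in Ctrl, a log2 fold change of -0.99 (SE 0.17; adjusted p = 0.0648, edgeR). VAV3, a guanine nucleotide exchange factor, and the phospholipase PLCB2 had 0.50 and 0.43 (edgeR adjusted p = 0.238 and 0.312).

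Granule biogenesis genes, 25 tested, had a median of 0.008. By edgeR, DESeq2 and limma-voom 0 passed. At an unadjusted p under 0.05, edgeR placed 0 higher and 1 lower, against 6.79% and 8.19% of all tested genes. HPS3, which is needed for dense granules, the nucleotide transporter ABCC4 and the secretion factor STXBP2 had log2 fold changes of -0.54, -0.27 and -0.36 (edgeR adjusted p = 0.244, 0.421 and 0.456). Of 9 listed platelet enzymes 8 were tested, with a median of 0.249. By edgeR, DESeq2 and limma-voom 0 passed. At an unadjusted p under 0.05, edgeR placed 2 higher and 1 lower, against the same 6.79% and 8.19%. The phosphodiesterase PDE3A and the phospholipase PLA2G4A, which frees arachidonic acid, had 0.59 and 0.59, and GUCY1B1, a subunit of the nitric oxide receptor, had -0.52 (edgeR adjusted p = 0.160, 0.182 and 0.212). After the GC correction the fit called 2 higher and 4 lower among the biogenesis genes, 5 and 1 among the enzymes, 5 and 3 among the surface receptors, 7 and 6 among the signalling genes and 2 and 4 among the maturation genes. These counts stand against 13.3% of all tested genes called higher and 13.8% called lower in that fit.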

How the data were processed

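The deposited values were counts of reads per gene, 1 column for each of the 4 libraries, and 0 other value columns were present. Per the submitters' processing notes, fastp 0.13.1, HISAT2 2.1.0 and featureCounts 1.6.1 were used with hg38. Which annotation was counted, with what strand setting, and how multi-mapped and overlapping reads were handled are unknown. Libraries marked strand with dUTP and were amplified by PCR, per the labels' protocols.

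In edgeR 4.0.16 (R 4.3.3), low genes were removed with filterByExpr (count 10, total 15), sizes were scaled by TMM, and group was the sole term of a quasi-likelihood F test. P-values were adjusted by Benjamini-Hochberg across 13572 genes, and changes are relative to the other genes. An SE is the log2 fold change without its sign over the root of F. CPM use TMM-scaled sizes. Exonic lengths, positions and the longest transcript's GC content were read from GENCODE v29 (GRCh38), in which 2094 of 28103 symbols had no match. GC content was known for 97.4% of tested genes. The GC correction takes, in each library, the deviations of log-CPM from each gene's mean over all libraries. It fits these to GC content by lowess (span 0.4) and takes the centred trend as an offset. Genes without a GC value are left uncorrected. Upstream sequences came from RefSeq (GRCh38.p14).

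The 10 genes and the 6 lists were chosen with earlier results of these data known. By rule, the named genes are all 10, AFF4, and overlapping or near-copy genes. Added to these are every called list gene or otherwise the 3 of smallest p in a list, and the 2 nearest profiles. Cell type markers, CXCL2, CXCL3, DNM3, MMRN1, SRGN and the transcription regulators of the maturation list were named outside this rule. Alternatives covered the scaling (RLE, upper quartile, library size), the filter (none, or 5 CPM in 2 libraries), the tool (DESeq2 1.42.0, or voom in limma 3.58.1), the replicate number as a block, the GC correction alone and with that block, each library left out, and a threshold of 0.01. The procedure was run on simulated counts with known changes. It recovered 77% of 2-fold changes and called 10 unchanged genes. The simulated libraries shared 1 common spread and held no trend with GC content. The run therefore does not cover the split between the Ctrl libraries.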

Additional observations from a re-analysis of the deposited data

How the results depend on the processing

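The count of genes called over the whole table, 87, moved to 734 with no filter, 5 with the stricter filter, 410 in DESeq2, 3688 with the GC correction and 3 at an adjusted p under 0.01, and ranged from 46 to 6722 with 1 library left out. Of the 9 tested platelet genes, 1 was called, against 2 with no filter, 0 with the stricter filter or at an adjusted p under 0.01, 3 with the GC correction and 0 to 4 with 1 library left out. Their median log2 fold change ranged from -0.61 to -0.0076 with 1 library left out. ITGB3 was at -0.91 with the stricter filter. PF4 was called with no filter (-1.01) and with the GC correction (-1.03), and GP9 with the GC correction (-0.59). GP1BA turned to -0.027 with the stricter filter and -0.0040 with the GC correction. With 1 library left out, the log2 fold changes ranged from -0.50 to 0.30 in ITGA2B, -0.90 to -0.84 in ITGB3, -0.091 to 0.12 in GP1BA, -1.15 to -0.0076 in GP9, -0.019 to 0.19 in GP5, -0.087 to 0.59 in GP6, -1.15 to -0.87 in PF4, -0.73 to -0.34 in PPBP and -0.89 to -0.61 in VWF. Where 1 library of a group remains, its spread is taken from the group that kept both. The causes of these shifts were not tested. RLE, upper quartile and library-size scaling and limma-voom changed no call among the 9 genes.

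The libraries of the 2 groups share replicate numbers, but the labels do not say what a number marks. Deviations of same-numbered libraries from their group means correlated at 0.285 across genes. With the replicate number as a block 888 genes were called, 408 higher and 480 lower, and 3 of the platelet genes, with GP9 at -0.58 and PF4 at -1.01. With the block and the GC correction together 4675 genes and 3 platelet genes were called, with GP9 at -0.58, PF4 at -1.02 and GP1BA at -0.0039. Counts of at most 64 in every library limit GP6, PPBP and VWF.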
